A study of Sus scrofa with 2 samples.

Results

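The thymic chemokine receptors described here are the 9 genes CCR9, CCR4, CXCR4, CXCR3, CXCR6, CCR2, CCR6, CCR8 and CXCR5, chosen by symbol from the 21301 genes listed for 2 droplet libraries of pig thymus. All 9 symbols were present. One library was made of iNKT thymocytes, innate-like T cells that see lipids through a semi-invariant receptor, and the other of total thymocytes. Both kinds were untreated and came from the same thymi, of 2 mixed-breed pigs aged 22 weeks, with the pigs pooled, so each kind has 1 library and no replicate. Per the labels' protocols a magnetic bead step selected the iNKT cells and is not described for total thymocytes, and flow sorting for live cells followed for both. Bead selection and cell kind cannot be told apart.

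Chemokine receptors are G protein-coupled receptors that steer cells along gradients of small secreted proteins. In the thymus of mouse and human, CXCR4 reads CXCL12 in the cortex, where receptor genes rearrange and thymocytes are positively selected. CCR9 reads CCL25 from thymic epithelium. CCR4, the receptor of CCL17 and CCL22, and CCR7, the receptor of CCL19 and CCL21, appear with positive selection and guide cells into the medulla, where self-reactive cells are removed. CXCR3, CXCR6 and CCR2 are known from effector and innate-like T cells. CCR6, CCR8 and CXCR5 are known from type 17, regulatory and follicular helper T cells.

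Stages of total thymocytes were set by which of 4 genes had a unique molecular identifier (UMI, 1 captured RNA molecule) in a cell. RAG1 encodes the recombinase of cortical thymocytes, TOX2 is a transcription factor of the HMG-box family, and CD40LG is the helper ligand of mature CD4 T cells. SOX13 marks cells of gamma-delta type. The RAG1 stage held 3343 cells, the RAG1 and TOX2 stage 66, the TOX2 stage 725, the TOX2 and CD40LG stage 125 and the CD40LG stage 160. Another 206 cells had SOX13 alone, and a mature CD8 gate of 133 cells had KLF2 and CD8B, no CD4 and none of the 4 genes. The iNKT library gave 11273 cells. RAG1 was found in 9.17% of all cells with CD40LG (30 of 327), and 45.6% of them had TOX2.

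The iNKT library held 54457966 UMIs over 12097 barcodes and the total thymocyte library 29723207 UMIs over 9112 barcodes, with 41 barcodes in both. Marker sums leave out the gate genes. Those of 7 cortical markers were 1.86 CPM in iNKT cells, where CPM counts a gene's UMIs in every 1000000 UMIs of its group. Over the 5 stages from RAG1 to CD40LG they were 3457, 2465, 472, 86.7 and 171 CPM. Those of 5 maturity markers, CCR7 among them, were 2251 CPM in iNKT cells and 181, 317, 649, 871 and 1009 CPM over the stages. The 4 iNKT markers were ZBTB16, IL4, CD44 and CD9. They summed to 577 CPM in iNKT cells and to between 60.0 and 212 CPM in the stages. ZBTB16 and IL4 had 0 UMIs in the RAG1 stage and the RAG1 and TOX2 stage, so those sums came from the other markers. In the mature CD8 gate, also with both at 0, the sum was 244 CPM. The 3 gamma-delta markers summed to 1709 CPM in the SOX13 gate, against 21.1 to 184 CPM in the stages. All intervals below are at 95% and cover counting error only. With 1 library of each kind no test between groups was made, and a gene was called where its CPM differed at least 2-fold with at least 20 UMIs over both sides.

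The receptors switched along the stages in order: CXCR4 declined, CCR9 peaked at the TOX2 stage, and CCR4 climbed to the CD40LG stage. CXCR4 stood at 515 CPM in the RAG1 stage, 371 in the RAG1 and TOX2 stage, 248.5 in the TOX2 stage, 137 in the TOX2 and CD40LG stage and 157 in the CD40LG stage. CCR9 stood at 131, 334, 595, 304 and 141 CPM in the same order. CCR4 stood at 5.81, 65.1, 119.6, 144.5 and 205 CPM. For CCR9 the intervals of every pair of neighbouring stages were apart. For CXCR4 those of the last 2 stages overlapped. For CCR4 those of the last 3 stages overlapped with their neighbours, though the ratio of the CD40LG stage to the TOX2 and CD40LG stage was 1.42 (1.06 to 1.91).

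**Figure D1:**
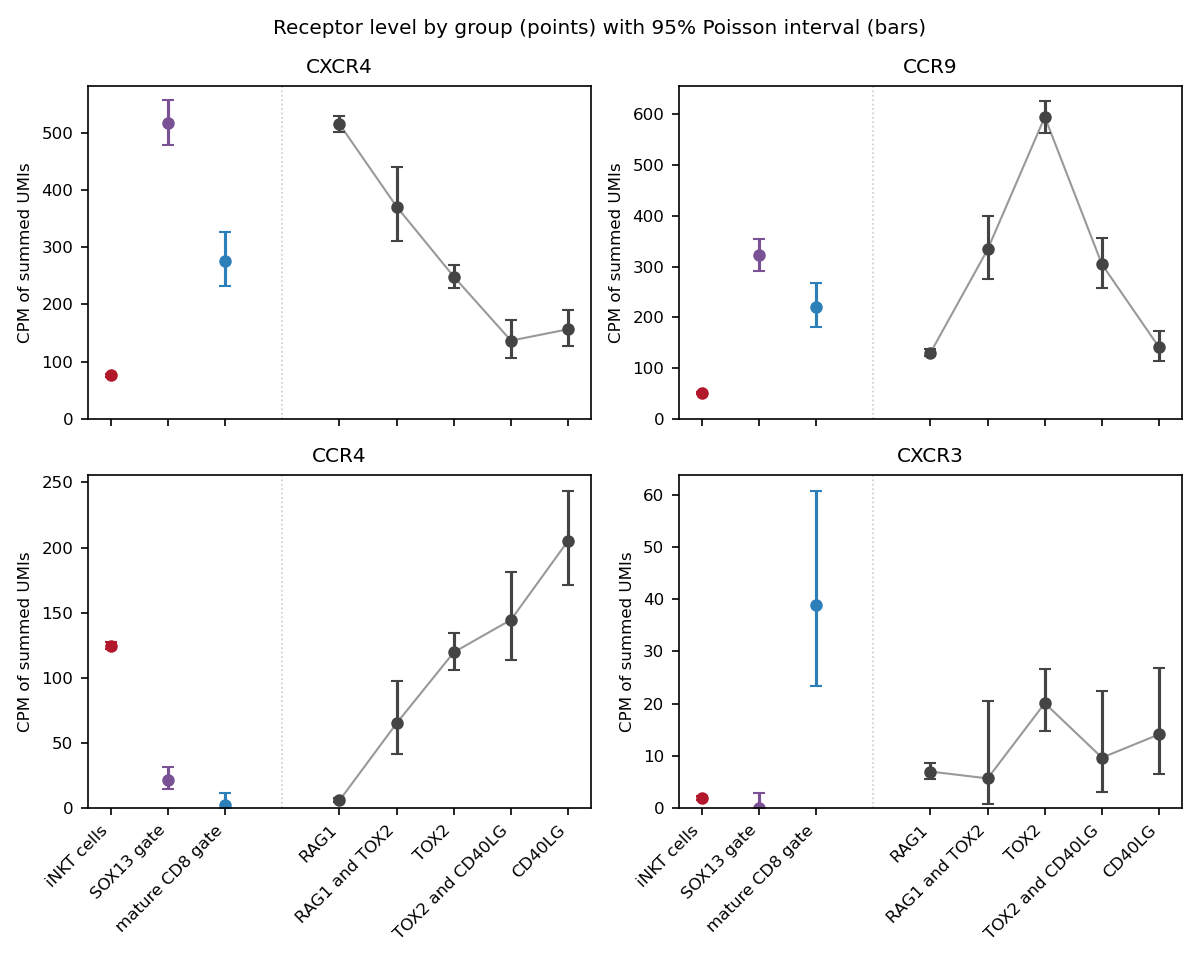
Level of 4 receptors in CPM of summed UMIs (vertical axes from 0) in iNKT cells, the SOX13 gate, the mature CD8 gate and the 5 stages of total thymocytes joined by a line, with 95% Poisson intervals as bars. CXCR4 declines from 515 CPM, CCR9 peaks at 595 CPM in the TOX2 stage, CCR4 climbs to 205 CPM, and CXCR3 is highest in the mature CD8 gate at 38.9 CPM.

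Between the TOX2 stage and the RAG1 stage, 4 of the 9 receptors had enough UMIs, and 3 were higher and 1 was lower. Over all genes counted, 8.58% were higher and 11.6% lower. The median log2 ratio, with 0.5 UMIs added to each side, was 1.86 for the 4 receptors and -0.03 for all genes. CCR4 had the ratio furthest from 1, at 20.6 (15.7 to 27.4), with 280 UMIs in the TOX2 stage and 65 in the RAG1 stage. CCR9 had a ratio of 4.56 (4.23 to 4.91) and CXCR3 of 2.88 (1.96 to 4.19), with 20.1 CPM in the TOX2 stage and 6.97 CPM in the RAG1 stage. CXCR4 was 2.07-fold lower (1.90 to 2.26), close to the limit of a call, and crossed it with upper-quartile scaling or gates that allow other gate genes. The 66 cells with both RAG1 and TOX2 stood between them, with ratios over the RAG1 stage of 11.2 (6.64 to 18.3) for CCR4, 2.56 (2.10 to 3.09) for CCR9 and 0.720 (0.601 to 0.856) for CXCR4. Their median depth was 4849 UMIs, against 2056 in the RAG1 stage and 2870 in the TOX2 stage. Whether they include doublets of the 2 stages, which would also have levels in between, was not tested.

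Much of the gain of CCR9 lay inside the RAG1 stage. PTCRA encodes the pre-T cell receptor alpha chain, which precedes the double-positive stage. Among RAG1-stage cells, the 1973 with a UMI of PTCRA or of a division gene had 58.3 CPM of CCR9, and the 1370 with neither had 434 CPM, a ratio of 0.134 (0.121 to 0.150). CCR4 stood at 3.43 CPM in the first set and 15.8 CPM in the second, and CXCR3 at 4.21 and 18.6 CPM. CXCR4 differed less, at 494 and 601.5 CPM, a ratio of 0.822 (0.772 to 0.875). Median depth was 2987 UMIs in cells with PTCRA or a division gene and 1285 UMIs in those with neither.

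Against the RAG1-stage cells with neither PTCRA nor a division gene, an alternative added after the data were seen, TOX2-stage CCR9 was 1.37-fold higher in place of 4.56-fold. The ratio of CXCR3 was then 1.08, that of CCR4 7.56 and that of CXCR4 0.413, so 1 receptor in place of 3 was called higher. The CCR9 ratio was 2.59 with equal weight per cell. CCR4 moved the other way when the cells with the highest doublet scores were left out, to a ratio of 67.9.

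Other splits of the RAG1 stage separated CCR9 too. Cells with DNTT, the terminal transferase active during rearrangement, had 96.4 CPM of CCR9, against 170.3 CPM in cells without. Cells with CD8B, a co-receptor chain, had 168 CPM of CCR9 against 51.5 CPM in cells without, a ratio of 3.26 (2.79 to 3.82). CXCR3 had 74 UMIs in cells with CD8B and 4 in cells without, a ratio of 8.75 (3.28 to 33.0). CXCR4 was lower with CD8B, at 469 against 611 CPM. Cells with CD5, which records receptor signalling, did not differ in CCR9 beyond counting error, with a ratio of 0.956 (0.824 to 1.11), and had CCR4 at a ratio of 1.95 (1.05 to 3.45).

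**Figure D2:**
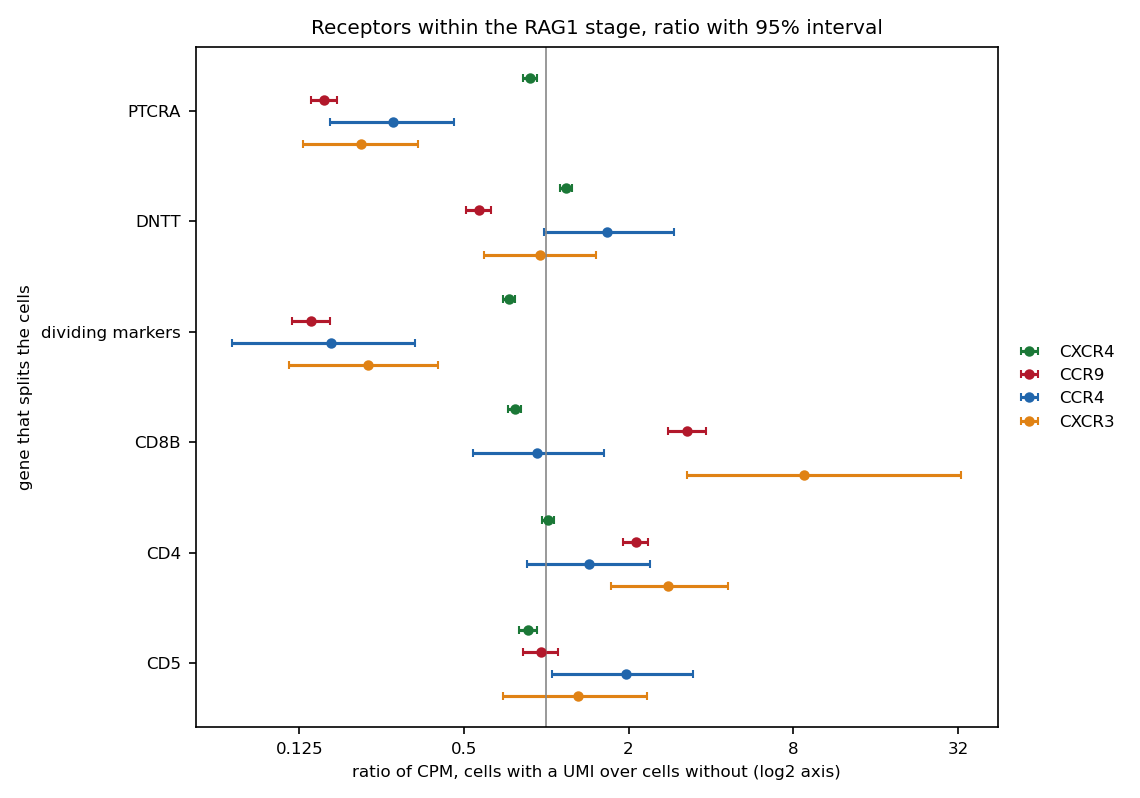
Ratio of CPM (log2 axis, 95% intervals as bars) for 4 receptors between RAG1-stage cells with and without a UMI of each gene on the vertical axis. CCR9 and CXCR3 lie left of 1 for PTCRA and the dividing markers and right of 1 for CD8B and CD4, while CXCR4 stays between 0.732 and 1.18.

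From the TOX2 stage to the CD40LG stage CCR9 alone crossed the 2-fold limit. Its level was 141 CPM in the CD40LG stage and 595 CPM in the TOX2 stage, 4.22-fold lower (3.41 to 5.28). Of the 4 receptors counted, none was higher and 1 was lower, against 3.80% higher and 6.21% lower over all genes. CCR4 had a ratio of 1.72 (1.38 to 2.12) and CXCR4 of 0.630 (0.505 to 0.781). With cells limited to 5% mitochondrial UMIs the ratio of CCR4 was 1.005. The median log2 ratio was -0.55 for the 4 receptors and -0.02 for all genes. CXCR3 had 9 UMIs in the CD40LG stage and 47 in the TOX2 stage, with a ratio of 0.703 (0.303 to 1.45).

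Over the whole course, CD40LG stage against RAG1 stage, CCR4 was 35.3-fold higher (26.0 to 48.3) and CXCR4 3.29-fold lower (2.70 to 4.05). The CCR4 ratio was 13.0 against the RAG1-stage cells with neither PTCRA nor a division gene, and 109 without the cells with the highest doublet scores. CCR9 ended at a ratio of 1.08 (0.863 to 1.34), and its alternatives ran between 0.325, against the RAG1-stage cells with neither PTCRA nor a division gene, and 1.96 with levels thinned to 2000 UMIs per cell. CXCR3 was at a ratio of 2.02 (0.892 to 4.04), whose interval includes 1, and its direction turned to 0.758 against those cells. The count was 2 of 4 receptors higher and 1 lower, with 10.9% of all genes higher and 14.5% lower, and medians of 0.60 and -0.04 on the log2 scale. FOXP3, the factor of regulatory T cells, had a UMI in 12 of the 160 CD40LG-stage cells, whose CCR4 was 319 CPM, against 195.5 CPM in the other 148. That ratio, 1.63 (0.903 to 2.77), does not separate them. Regulatory T markers summed to 147 CPM in the CD40LG stage and 1.88 CPM in the RAG1 stage. Without FOXP3 cells CCR4 stayed called higher and CXCR4 lower.

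Shares of cells, after each cell was thinned to 2000 UMIs, declined likewise for CXCR4 and peaked at the TOX2 stage for CCR9. CXCR4 was found in 62.0%, 48.4%, 26.5%, 23.0% and 21.4% of cells over the 5 stages. CCR9 was found in 12.4%, 45.2%, 56.7%, 38.5% and 20.8%, and CCR4 in 0.866%, 16.1%, 17.2%, 24.6% and 22.7%. For CCR4 the intervals of the last 2 stages overlapped, at 16.4 to 30.2 in the CD40LG stage and 17.2 to 33.2 in the TOX2 and CD40LG stage. Unthinned, CXCR4 was found in 37.7% of TOX2-stage cells and 69.3% of RAG1-stage cells, CCR9 in 71.6% and 27.9%, and CCR4 in 22.2% and 1.05%, in the same order. Thinning left out 166 shallow cells of the TOX2 stage and 1610 of the RAG1 stage. Most RAG1-stage cells with neither PTCRA nor a division gene, the set with more CCR9, were among those left out. CCR9 in the RAG1 stage was 276 CPM with equal weight per cell, against 131 CPM of summed UMIs. The thinned CCR9 share of the RAG1 stage thus describes its deeper cells, which had less CCR9. CCR4 was found in 1 of 125 cells of the mature CD8 gate, the group with the least of it, or 0.8% (0.0203 to 4.38). The RAG1-stage share of 0.866% (0.485 to 1.42) lies inside that interval, which rests on 1 cell. What part of the RAG1-stage CCR4 is free RNA was not tested, and folds of CCR4 over that stage are over few UMIs. Median depths were 3468 UMIs in the mature CD8 gate and 2056 UMIs in the RAG1 stage.

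**Figure D3:**
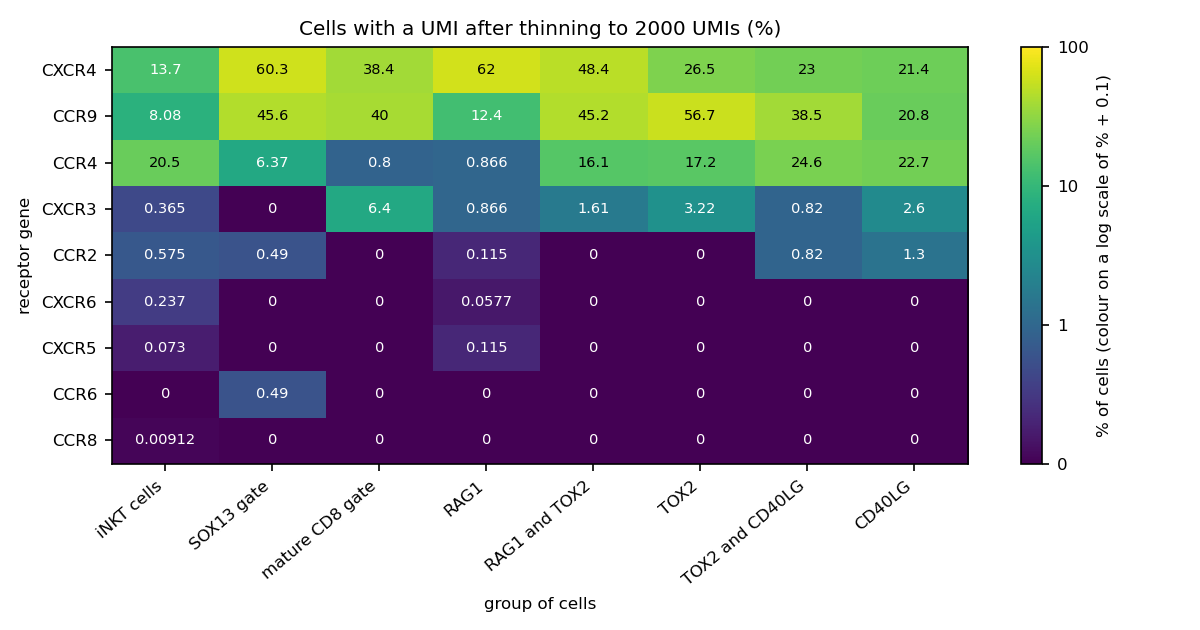
Percent of cells with a UMI of each of the 9 receptors (rows) in iNKT cells, the SOX13 gate, the mature CD8 gate and the 5 stages (columns), after thinning to 2000 UMIs, with colour on a log scale. The 3 upper rows hold nearly all of the signal, with CXCR4 at 62.0% of RAG1-stage cells, CCR9 at 56.7% of TOX2-stage cells and CCR4 at 24.6% of cells with TOX2 and CD40LG.

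CXCR4 made up 25.3% of the UMIs of all 9 receptors in the TOX2 stage and 77.9% in the RAG1 stage, and CCR9 made up 60.5% in the TOX2 stage and 19.8% in the RAG1 stage. In iNKT cells CCR4 made up 48.3%, CXCR4 29.4% and CCR9 19.7%. These shares are of captured 3′ tags and carry no correction for how well each transcript is captured. At least 2 receptors were found in 25.2% of thinned TOX2-stage cells (21.7 to 29.0) and in 8.19% of RAG1-stage cells (6.95 to 9.59). Within the TOX2 stage CCR9 was found in 49.3% of cells with CXCR4 (41.0 to 57.7) and 59.4% of cells without (54.4 to 64.2), and CCR4 in 18.0% of cells with CCR9 and 16.1% of cells without. Within the SOX13 gate CCR9 was found in 51.2% of cells with CXCR4 (42.0 to 60.3) and 37.0% of cells without (26.6 to 48.5).

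Cells of CD4 and CD8 type parted by CCR4 and CXCR3. The mature CD8 gate had 1 UMI of CCR4 (2.05 CPM), against 131 UMIs (205 CPM) in the CD40LG stage, 100.3-fold lower with a wide interval (17.7 to 3990). It had the highest CXCR3 of all groups, 38.9 CPM (23.4 to 60.7), against 14.1 CPM (6.45 to 26.8) in the CD40LG stage, a ratio of 2.76 (1.19 to 6.92). Its CCR9 was 221 CPM and its CXCR4 276 CPM, with ratios over the CD40LG stage of 1.57 (1.17 to 2.10) and 1.76 (1.35 to 2.31). The gates differ in more than lineage, since one requires KLF2 and the other CD40LG. KLF2 is the transcription factor of cells ready to leave the thymus.

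The same contrast was made among all cells with KLF2 and neither RAG1 nor SOX13. There 167 cells with CD8B and no CD4 had 15.7 CPM of CCR4, and 61 cells with CD4 and no CD8 chain had 57.5 CPM, a ratio of 0.274 (0.109 to 0.663). CXCR3 had 22 UMIs in the cells with CD8B and 0 in those with CD4, at least 2.81-fold higher with the CD4 side set at 3 UMIs. CXCR4 had a ratio of 1.499 (1.07 to 2.15), and CCR9 did not differ beyond counting error, with a ratio of 1.27 (0.915 to 1.79).

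The split was visible already in the TOX2 stage. Cells with CD4 and no CD8 chain had 150 CPM of CCR4 and the reverse 84.8 CPM, a ratio of 1.77 (1.17 to 2.64), while CXCR4 had a ratio of 0.512 (0.343 to 0.742). CXCR3 was 2.51 times higher in cells with CD8B than without (1.36 to 4.67). GATA3, a transcription factor needed for the CD4 lineage, went with CCR4 in the 3 stages split by it: the ratio of cells with it to cells without was 2.63 (1.53 to 4.66) in the RAG1 stage, 1.72 (1.33 to 2.23) in the TOX2 stage and 1.95 (1.34 to 2.89) in the CD40LG stage.

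KLF2 went with lower CCR9. The ratio of cells with KLF2 to cells without was 0.651 (0.563 to 0.750) in the TOX2 stage, 0.464 (0.264 to 0.778) in the CD40LG stage and 0.480 (0.351 to 0.645) in the SOX13 gate, but 0.932 (0.612 to 1.36) in the RAG1 stage. CXCR4 was higher with KLF2 in the TOX2 stage, at 384 against 207 CPM, a ratio of 1.85 (1.56 to 2.20). Whether these cells are a later step or another lineage was not tested.

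SOX13 cells held both CXCR4 and CCR9. CXCR4 stood at 516 CPM in the SOX13 gate and 515 CPM in the RAG1 stage, a ratio of 1.003 (0.924 to 1.09), and was 3.30-fold higher than in the CD40LG stage (2.67 to 4.11). CCR9 stood at 322 CPM, against 131 CPM in the RAG1 stage, a ratio of 2.47 (2.21 to 2.76). Against RAG1-stage cells with neither PTCRA nor a division gene that ratio turned to 0.742, with equal weight per cell it was 1.27, and without dividing cells 1.47. CCR4 stood at 21.8 CPM, 9.40-fold lower than in the CD40LG stage (6.21 to 14.7) and 3.76-fold higher than in the RAG1 stage (2.32 to 5.94), or 1.38-fold higher against its cells with neither and 11.8-fold without the highest doublet scores. CXCR3 had 0 UMIs in the gate, which allows up to 2.34 CPM at 3 UMIs, against 78 in the RAG1 stage, at least 2.98-fold lower. Of the 4 receptors counted 2 were higher and 1 lower, against 7.95% and 12.2% of all genes, with medians of 0.65 and -0.04 on the log2 scale.

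Of the 28 CCR4 UMIs in the SOX13 gate, 21 lay in the 51 cells with KLF2, at 72.2 CPM, and 7 in the other 155, at 7.06 CPM. Dividing markers summed to 448.5 CPM in the SOX13 gate and 1071 CPM in the RAG1 stage. SOX13-gate cells with a division gene had CXCR4 at 455 CPM and those without at 563.5 CPM.

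iNKT cells held CCR4 near the level of the TOX2 stage, above that of the mature CD8 gate (2.05 CPM), and little CCR9 or CXCR4. CCR4 stood at 124.7 CPM (6645 UMIs) in iNKT cells, against 205 CPM in the CD40LG stage, a ratio of 0.608 (0.511 to 0.728) that was 1.02 at 5% mitochondrial UMIs, and against 119.6 CPM in the TOX2 stage, a ratio of 1.04 (0.926 to 1.18). CXCR4 stood at 75.9 CPM, the lowest of all groups, and CCR9 at 51.0 CPM, the lowest as well. CCR9 was 2.77-fold lower than in the CD40LG stage (2.22 to 3.41) and 11.7-fold lower than in the TOX2 stage (10.9 to 12.5). CXCR4 was 2.06-fold lower than in the CD40LG stage (1.67 to 2.52) and 6.78-fold lower than in the RAG1 stage (6.51 to 7.06).

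Between iNKT cells and the CD40LG stage 6 receptors were counted, and none was higher and 4 lower, against 5.98% and 12.6% of all genes, with medians of -1.26 and -0.26 on the log2 scale. The 2 beyond CCR9 and CXCR4 were CXCR3, 7.44-fold lower (3.31 to 14.7), and CXCR6, with 61 UMIs in iNKT cells and 2 in the stage, a ratio of 0.365 (0.0969 to 3.09). Against the RAG1 stage 7 were counted, 3 higher and 4 lower, where 16.0% and 21.0% of all genes were, with medians of -1.36 and -0.25. CCR4 was 21.5-fold higher (16.8 to 27.9) and CCR2 3.24-fold higher (1.81 to 6.38). Against RAG1-stage cells with neither PTCRA nor a division gene CCR4 had a ratio of 7.89 and CCR2 turned to 0.933. Without the highest doublet scores the ratio of CCR4 was 64.4. The third was CXCR6, with 61 UMIs in iNKT cells and 1 in the RAG1 stage, and the lower ones were CCR9, CXCR4, CXCR3 and CXCR5. Against the SOX13 gate 6 were counted, 1 higher and 2 lower, where 10.6% and 16.2% of all genes were, with medians of 0.78 and -0.19. CCR4 was 5.71-fold higher (3.95 to 8.60), CCR9 6.32-fold lower (5.68 to 7.01) and CXCR4 6.80-fold lower (6.26 to 7.39).

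Scaling moved the background of the iNKT comparisons. With TMM factors in place of total UMIs the median log2 ratio of all genes, with nothing added, was 0.13 in place of -0.13 over the CD40LG stage, 0.10 in place of -0.13 over the SOX13 gate and -0.01 in place of -0.24 over the RAG1 stage. The share of genes higher and lower was then 8.75% and 8.73%, 13.9% and 12.6%, and 19.1% and 17.0% in the same order. CCR9 and CXCR4 kept their direction in all 3 comparisons, but CXCR4 over the CD40LG stage was no longer called, at a ratio of 0.581 with TMM factors and 0.546 with upper-quartile scaling. The 2 libraries as wholes gave 51.0 CPM of CCR9 in iNKT cells against 230.1 in total thymocytes, 75.9 against 434 CPM of CXCR4 and 124.7 against 42.6 CPM of CCR4.

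A receptor was found in a smaller share of iNKT cells than of cells in the stages. After thinning, 61.7% of iNKT cells (60.8 to 62.6) had no UMI of any of the 9, against 46.8% of CD40LG-stage cells (38.7 to 55.0), 23.4% of TOX2-stage cells (19.98 to 27.2) and 32.3% of RAG1-stage cells (30.1 to 34.6). CCR4 was found in 20.5% of iNKT cells, CXCR4 in 13.7% and CCR9 in 8.08%, and unthinned in 37.5%, 22.4% and 15.9%. CCR9 was found in 4.98% of iNKT cells with CXCR4 (3.94 to 6.20) and 8.57% of those without (8.02 to 9.16). CCR4 was found in 21.7% of iNKT cells with CCR9 (19.0 to 24.5) and 20.4% of those without (19.6 to 21.2).

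iNKT cells with TOX2 had more CCR9 than those without. CCR9 stood at 107 CPM in the 1310 iNKT cells with TOX2, against 41.0 CPM in the 9963 without, a ratio of 2.61 (2.40 to 2.83). CXCR4 stood at 45.7 against 81.3 CPM, a ratio of 0.562 (0.504 to 0.626), and CCR4 at 125.5 against 124.6 CPM. ZBTB16, which encodes PLZF, the regulator that gives T cells innate-like behaviour, gave the same directions, with ratios of 1.57 (1.44 to 1.71) for CCR9 and 0.639 (0.600 to 0.679) for CXCR4. CCR2, the receptor of CCL2, was higher with either gene, at ratios of 1.85 (1.29 to 2.60) with TOX2 and 1.69 (1.21 to 2.41) with ZBTB16. Cells with IL4, the type 2 cytokine, had CCR4 at 144 against 122 CPM, a ratio of 1.17 (1.09 to 1.26), and CCR9 at a ratio of 0.824 (0.721 to 0.939).

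**Figure D4:**
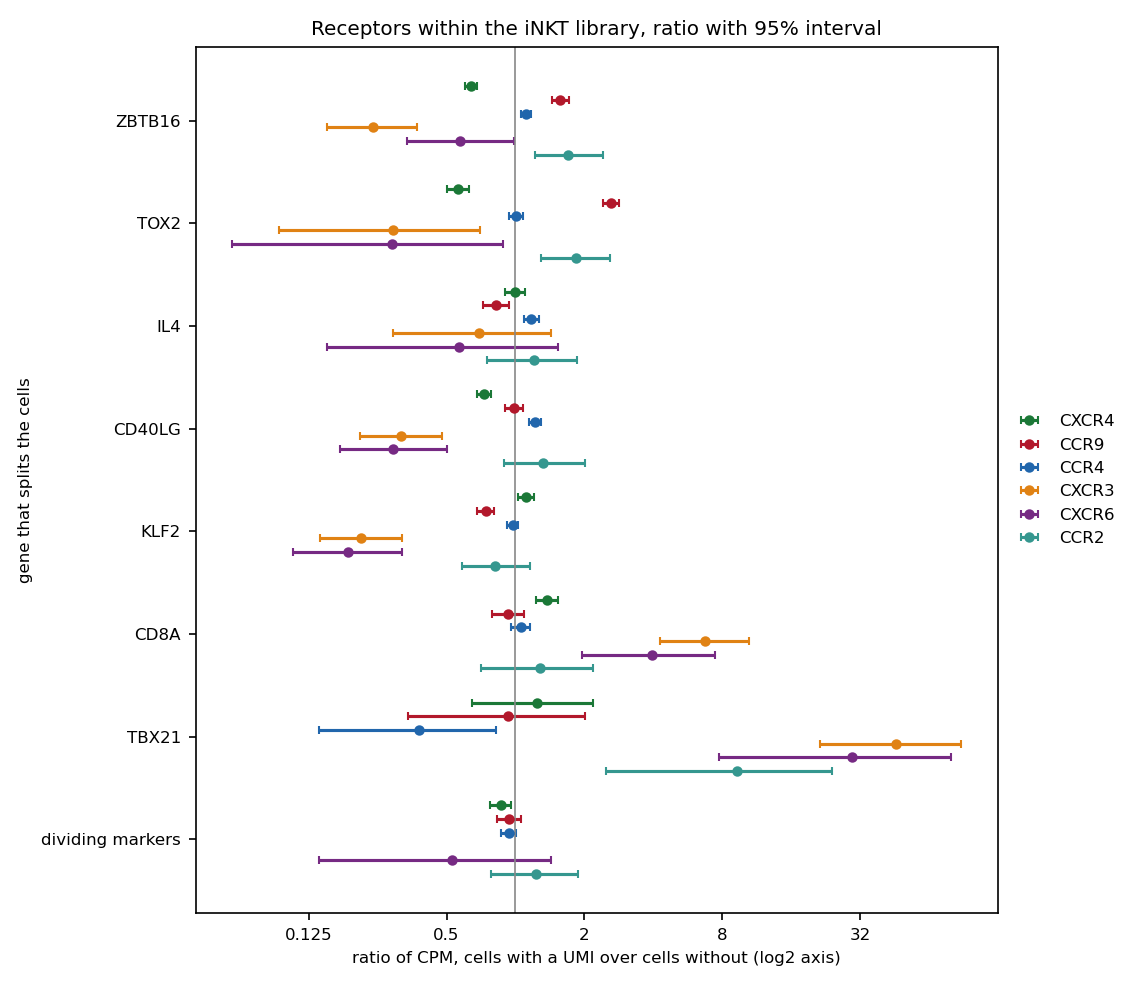
Ratio of CPM (log2 axis, 95% intervals as bars) for 6 receptors between iNKT cells with and without a UMI of each gene on the vertical axis. CCR9 lies right of 1 for ZBTB16 and TOX2, CXCR3 and CXCR6 lie far right for TBX21 and CD8A and left for KLF2 and CD40LG, and CCR4 stays near 1 except for TBX21.

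CXCR3 and CXCR6 were rare in iNKT cells, with 101 and 61 UMIs, and were concentrated in a few of them. TBX21 encodes T-bet, the factor of type 1 cells. In the 25 iNKT cells with its transcript CXCR3 was 46.0 times the level of the other 11248 (21.4 to 88.6), with 10 and 91 UMIs. CXCR6 had a ratio of 29.4 (7.74 to 79.5) in those cells and CCR2 of 9.26 (2.49 to 24.1), on 4 UMIs each, while CCR4 had a ratio of 0.378 (0.139 to 0.824). In the 699 iNKT cells with CD8A, CXCR3 had a ratio of 6.76 (4.30 to 10.4) and CXCR6 of 3.95 (1.96 to 7.40). Cells with KLF2 had less of both, with ratios of 0.212 (0.140 to 0.320) for CXCR3 and 0.186 (0.106 to 0.319) for CXCR6.

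CCR7, the medullary receptor outside the 9, was found in 8 of 40 thinned iNKT cells with CXCR3, 20% (9.05 to 35.6), and 71.3% of those without. The 152 iNKT cells with at least 2 of 6 cytotoxic markers held 19 of the CXCR3 UMIs and 9 of the CXCR6 UMIs, with ratios over the rest of 13.1 (7.50 to 21.8) and 9.78 (4.24 to 20.02). Those markers summed to 49.8 CPM in iNKT cells, with GNLY, NCR1 and KLRB1 at 0. Their part in the result was not tested.

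In total thymocytes CXCR6 lay outside the stages. Of its 71 UMIs, 67 were in cells with none of the gate genes, and 42 were in 157 cells with at least 2 cytotoxic markers, a ratio over the other cells of 55.3 (33.6 to 92.0). CXCR3 had a ratio of 9.36 (6.97 to 12.4) in those cells, which held 62 of its 315 UMIs. CCR4 was 4.92 times higher (3.28 to 7.10) in 36 cells with at least 2 of 3 regulatory T markers. The cytotoxic markers summed to 83.8 CPM in total thymocytes and 203 CPM in the mature CD8 gate.

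The other receptors were rare, and CCR6 and CCR8 were at or near the limit of detection. CCR2 had 185 UMIs in iNKT cells (3.47 CPM) and 50 in total thymocytes (1.75 CPM), a ratio of 1.98 (1.45 to 2.77), and was found in 0.575% of thinned iNKT cells and 0.272% of total thymocytes. CXCR5 had 17 UMIs in iNKT cells and 27 in total thymocytes, a ratio of 0.338 (0.173 to 0.642). Of the 27, 15 lay in the RAG1 stage, which held 39.2% of all UMIs of that library. CCR6 had 0 UMIs in iNKT cells, which allows up to 0.0563 CPM at 3 UMIs, and 3 in total thymocytes. CCR8 had 1 UMI in each library. CXCR6 was found in 0.237% of thinned iNKT cells and 0.0577% of RAG1-stage cells, with median depths of 4210 and 2056 UMIs. In all total thymocytes it was found in 0.335% of thinned cells. Its level was 1.14 CPM in iNKT cells and 2.49 CPM in all total thymocytes, so it was lower in iNKT cells than in that whole library. Most CXCR6 UMIs of that library lay in the few cells with at least 2 cytotoxic markers.

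The rest of the chemokine system was read from lists of 19 other receptors, 19 ligands and 28 signalling genes, of which 16, 16 and 25 had a symbol. Of the other receptors, 5 of 6 counted were higher and none lower in the TOX2 stage than in the RAG1 stage. Over all genes 8.58% were higher and 11.6% lower. CCR7 stood at 246 CPM in the TOX2 stage and 9.03 CPM in the RAG1 stage, a ratio of 27.2 (22.0 to 34.0). GPR183, a receptor for oxidised cholesterol, had a ratio of 17.4 (12.6 to 24.5), and PTGER4, a receptor of prostaglandin E2, of 3.31 (2.87 to 3.81). In the CD40LG stage GPR183 was a further 3.54-fold higher than in the TOX2 stage (2.85 to 4.40), while PTGER4 had a ratio of 0.253 (0.158 to 0.387), in the direction of CCR9.

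Of 11 other receptors counted between iNKT cells and the RAG1 stage, 8 were higher and none lower, against 16.0% and 21.0% of all genes. CCR7 stood at 654.5 CPM in iNKT cells, 1.77 times the CD40LG stage (1.56 to 2.02) and 8.65 times the SOX13 gate (7.09 to 10.7). S1PR1, the receptor that draws cells out of the thymus, stood at 51.6 CPM in iNKT cells and 51.7 CPM in the CD40LG stage, with 33 UMIs in the stage. ACKR3, an atypical receptor that takes up CXCL12, had 445 UMIs in iNKT cells and 4 in the RAG1 stage, a ratio of 23.4 (9.06 to 86.1).

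Ligands were few in thymocytes: 5 of 19 could be counted between the TOX2 and RAG1 stages, 4 higher (CCL17, CCL5, CCL4 and XCL1) and 1 lower. The shares over all genes were 8.58% and 11.6%. The lower ligand was CCL25, the ligand of CCR9, with 2 UMIs in the TOX2 stage and 27 in the RAG1 stage, a ratio of 0.354 (0.0408 to 1.41). XCL1, which attracts dendritic cells with XCR1, stood at 591 CPM in the CD40LG stage and 3.75 CPM in the RAG1 stage. In iNKT cells XCL1 stood at 13.6 CPM, with a ratio over the CD40LG stage of 0.0231 (0.0204 to 0.0262), and CCL4 stood at 46.4 CPM, with a ratio of 0.264 (0.219 to 0.322). Against the RAG1 stage, the TOX2 stage and the SOX13 gate, CCL4 was called higher in iNKT cells. Against the mature CD8 gate it was not called. CXCL10, a ligand of CXCR3, had 719 UMIs in iNKT cells and 1 in the RAG1 stage, a ratio of 151 (27.0 to 5971). Against all total thymocytes, however, CXCL10 in iNKT cells was within 2-fold and was not called.

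Of 24 signalling genes counted between the TOX2 and RAG1 stages, 7 were higher and 1 lower, against 8.58% and 11.6% of all genes. RGS19 and RGS10, which shorten G protein signals, had ratios of 8.49 (6.97 to 10.4) and 3.75 (3.48 to 4.05), and RGS16 of 0.443 (0.197 to 0.877). CORO1A, an actin regulator of T cell migration, had a ratio of 3.26 (3.13 to 3.39). Between iNKT cells and the RAG1 stage 9 of 24 were higher and 5 lower, against 16.0% and 21.0% of all genes. The lower count was near the share over all genes. RGS1 stood at 108 CPM in iNKT cells and 7.51 CPM in the RAG1 stage, and GRK5, a kinase that desensitises receptors, at 30.9 and 85.2 CPM. RHOH, a GTPase of T cell signalling, stood at 105.5 CPM in iNKT cells, 828 CPM in the SOX13 gate and 397 CPM in the RAG1 stage.

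Genes whose levels rose and fell most alike over the 8 groups were named from 8571 candidates by Pearson's r of log2(CPM + 10). A high r does not mean a like level or a like size of change. FXR2 stood at 14.1 CPM in iNKT cells and 25.2 CPM in the TOX2 stage, where CCR9 stood at 51.0 and 595 CPM. The groups share libraries and some share gate genes, so r is a description. For CXCR4 these were UBASH3B (0.992), NDUFA10 (0.975), NFIC (0.970) and ZNF580 (0.968). For CCR9 they were FXR2 (0.962), UBXN11 (0.952), IKZF2 and STK26 (both 0.928). For CCR4 they were ATXN10 (0.966), TMBIM6 and MED27 (both 0.947) and PFN1 (0.938). CXCR3 gave MMP25 (0.981), RNF214 (0.975), ARHGAP15 (0.963) and KRT80 (0.956), and CCR2 gave FBXO46 (0.902), GPN1 (0.893), MTO1 (0.876) and SAR1B (0.871). The other 4 receptors had under 200 UMIs over the groups.

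In the RefSeq order of pig genes in the Sscrofa11.1 assembly CCR9 and CXCR6 lie apart by FYCO1 alone, and CCR2 lies beyond XCR1, CCR1 and CCR3. Their levels did not follow each other: CCR9 was at 595 CPM in the TOX2 stage, where CXCR6 had 1 UMI and CCR2 had 0.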

How the data were processed

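The deposited matrices hold whole-number UMI counts per gene and barcode, not normalized, per the file headers, which name Cell Ranger 3.1.0. Per the submitters' processing notes the tools were Cell Ranger 3.1 and Seurat 3.1, and per the labels' protocols the kit was the 10x 3′ version 3.1. The genome build was not given in the sources used here. Cells under 500 genes, or with over 10% of their UMIs from the 13 mitochondrial genes, were left out, which kept 11273 iNKT and 8026 total thymocytes. Symbols came from the files (14846) or a gene name table (687). Of the cells kept, 3083 total thymocytes had no gate gene and were outside the mature CD8 gate, and 185 had other combinations. UMIs were summed per group and given as CPM with exact Poisson intervals, ratios with conditional binomial intervals and shares with Clopper-Pearson intervals (Python 3.11.15, scipy 1.17.1, numpy 2.4.6). A side with 0 UMIs was set at 3 UMIs for a fold. Scaling alternatives used edgeR 4.0.16 in R 4.3.3. Scrublet (scanpy 1.11.5) called 1 of 11273 iNKT and 3 of 8026 total cells, so it did not work, and doublets remain. An alternative left out the 902 and 642 highest scores. The call rule was tried only on simulated Poisson counts with planted changes. Those hold no variation between cells or libraries and no doublets, so the trial does not bear on these. MKI67 and CLEC9A had no symbol. The receptors, gates and gene lists were chosen with earlier results of these data known. All 9 receptors are named, then the 4 genes most like each with at least 200 UMIs, and list genes past 2-fold with at least 100 UMIs; CCR7, S1PR1 and CCL25 are also given where they miss this, chosen after their values were seen.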

Additional observations from a re-analysis of the deposited data

Results flagged for a closer look

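The ratio of CCR4 between cells with and without KLF2 differed in direction between groups. It was 10.1 in the RAG1 stage (4.75 to 19.5), on 11 UMIs in 32 cells with KLF2 and 54 UMIs in 3311 without. In the SOX13 gate it was 10.2 (4.18 to 28.5), on 21 and 7 UMIs. In the TOX2 stage it was 0.45 (0.305 to 0.646), on 34 and 246 UMIs. The difference between groups was not tested. Median depth was 5325 UMIs in RAG1-stage cells with KLF2 and 2044 in those without, 4744 and 4948 in the SOX13 gate, and 3667 and 2684 in the TOX2 stage.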

How the results depend on the processing

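No paired analysis was possible because each kind has 1 library. Of 557 ratios recomputed under the alternatives, 430 moved by less than their interval, 124 moved further and 3 of those past 2-fold changed direction, and 38 of 416 called ratios fell inside 2-fold. Among 141 ratios within 2-fold 17 crossed 1, among them CCR9 in the CD40LG over the RAG1 stage (0.325 to 0.971 under 6 alternatives), CCR4 in iNKT cells over the CD40LG stage (1.02 at 5% mitochondrial UMIs) and CCR2 there (2.04 without FOXP3 cells). Of 252 counts, 220 stayed within 1.5 times. An alternative that left 0 UMIs on one side gave no ratio. With the RAG1 stage limited to cells without PTCRA or division genes, CXCR3 had a ratio of 0.758 in the CD40LG stage, CCR9 0.742 in the SOX13 gate and CCR2 0.933 in iNKT cells. The receptors higher than in the RAG1 stage were then 1 for TOX2, 1 for CD40LG, 0 for SOX13 and 1 for iNKT cells, and 2 were lower in the CD40LG stage. That alternative, like those on FOXP3 cells, shared barcodes, CD79A and levels thinned to 2000 UMIs, was chosen after seeing the data.

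For the TOX2 over the RAG1 stage, 0 receptors were lower with inclusive gates or upper-quartile scaling. For the CD40LG over the TOX2 stage, 1 was higher with at least 2 UMIs of the gate gene and 2 were lower at 5% mitochondrial UMIs. For the CD40LG over the RAG1 stage, 1 was higher at 5% mitochondrial UMIs, with TMM factors, with equal weight per cell, at 100 UMIs, and without the deepest, dividing, FOXP3 or B, myeloid and dendritic marker cells, CD79A counted as a marker or not. For the SOX13 gate over the RAG1 stage, 0 were lower with at least 2 gate UMIs, thinned gates, thinned levels, 5% mitochondrial UMIs, 100 UMIs or without B, myeloid and dendritic marker cells. There 1 was higher with equal weight, at 100 UMIs, or without dividing or those marker cells. For iNKT cells over the RAG1 stage, 1 was lower with thinned levels. Over the CD40LG stage, 2 were lower with thinned gates and 1 higher without FOXP3 cells, and over the SOX13 gate 2 were higher without dividing cells. The cause was not tested. Of 40 shares, 25 moved when cells were thinned to 1000 or 3000 UMIs.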
